A study of Homo sapiens with 21 samples.

Results

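The genes described here are 8 genes of MHC class II antigen presentation: CIITA, HLA-DRA, HLA-DPA1, HLA-DPB1, HLA-DQA1, HLA-DMA, HLA-DMB and CD74. They were chosen because several of them stood far above the vector clone V22 in the parkin clone PK7 on these same arrays. All comparisons of the clones for these 8 genes are therefore a description, and no test is given for them. Each gene was read from 1 of the 26947 probe sets of the array, the brightest over all 21 arrays among the probe sets listed for it. Of the 8 genes, 6 had a probe set listed for that gene alone. HLA-DRA was measured on probe sets that are also listed for HLA-DQA1, and CD74 on 1 probe set that is also listed for ROS1, so their values may hold signal of both genes.

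The study used the established human glioblastoma line U-87MG and asked what stable expression of parkin, a ubiquitin ligase, does to these glioma cells. Affymetrix whole-transcript arrays were run on total RNA of 3 clones carrying the vector alone (V8, V17 and V22) and 3 clones expressing parkin (PK7, PK19 and PK25), none with a further treatment. V8, V17 and V22 were measured on 3 arrays each in a first array series, and V22 again with PK7, PK19 and PK25 on 3 arrays each in a second, as read from the prefixes of the array names. Each group is 1 clone grown from the same line, so a difference between a parkin clone and V22 cannot be told apart from a difference between any 2 clones. The promoter that drives parkin is not given in the sources used here, and its transcript was not analysed here. Nothing states that the arrays of a clone came from separate cultures, so every error and p-value below measures the spread between arrays, which may be technical.

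The median log2 value of an array was 6.21 to 6.37, and 12 arrays were of vector clones and 9 of parkin clones. VIM, the mesenchymal filament gene vimentin, was bright in V22 (log2 12.71), whereas the glial genes GFAP, S100B and OLIG2 had V22 means of 6.31, 4.19 and 5.59, GFAP within the range of the array medians and the others below it. In the first series V17 and V22 had 0 probe sets apart at an adjusted p under 0.05 in limma, and 730 at an unadjusted p under 0.05.

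MHC class II molecules present peptides from endosomes to CD4 T cells. Each is a pair of an alpha and a beta chain (DR, DP or DQ) that is assembled on the invariant chain CD74, which blocks the groove until HLA-DM, a pair of HLA-DMA and HLA-DMB, exchanges its last fragment for a peptide. Most cells outside the immune system carry little class II until interferon gamma switches on CIITA, a coactivator that binds no DNA itself and acts on factors (RFX, CREB and NF-Y) bound to the X and Y boxes of class II, HLA-DM and CD74 promoters. Astrocytes and glioma cells are among the cells in which class II can be induced.

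The promoter sequences of 5 of these genes and of HLA-DQB1, the partner chain of HLA-DQA1, are shown because CIITA acts through them and because the genes were high together in PK7. They are the 150 bases before the transcript start in RefSeq (GRCh38.p14), 5′ to 3′ on the strand of the gene. Capitals mark every match on either strand to the X box core or to the Y box ATTGG, which reads CCAAT on the other strand.
HLA-DMA (chr6:32953098-32953247, minus strand): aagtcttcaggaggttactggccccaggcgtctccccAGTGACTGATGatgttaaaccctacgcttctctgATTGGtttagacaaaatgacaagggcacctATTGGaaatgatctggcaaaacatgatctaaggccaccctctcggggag
HLA-DMB (chr6:32941029-32941178, minus strand): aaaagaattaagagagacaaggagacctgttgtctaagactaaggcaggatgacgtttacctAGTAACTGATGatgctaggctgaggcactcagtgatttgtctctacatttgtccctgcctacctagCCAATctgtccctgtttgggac
HLA-DQA1 (chr6:32637256-32637405, plus strand): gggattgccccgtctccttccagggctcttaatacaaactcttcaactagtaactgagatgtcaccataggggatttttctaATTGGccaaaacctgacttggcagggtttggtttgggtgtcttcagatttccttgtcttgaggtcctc
HLA-DQB1 (chr6:32666658-32666807, minus strand): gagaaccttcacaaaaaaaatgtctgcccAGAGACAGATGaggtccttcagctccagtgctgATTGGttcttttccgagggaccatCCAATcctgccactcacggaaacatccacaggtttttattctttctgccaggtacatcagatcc
HLA-DPB1 (chr6:33075840-33075989, plus strand): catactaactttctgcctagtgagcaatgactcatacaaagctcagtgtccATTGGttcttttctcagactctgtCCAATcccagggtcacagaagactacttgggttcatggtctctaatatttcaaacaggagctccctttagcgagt
CD74 (chr5:150412911-150413060, minus strand): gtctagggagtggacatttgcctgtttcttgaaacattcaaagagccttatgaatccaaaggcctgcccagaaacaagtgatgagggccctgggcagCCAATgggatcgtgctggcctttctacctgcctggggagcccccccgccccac

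Promoter windows were given for 6 of the 8 genes, and HLA-DRA and CIITA are named here without one. Within 250 bases before the start, the X box core was found in HLA-DMA and HLA-DMB, first base at -113 and -88. It was present in 243 of 35116 RefSeq windows of the same length (0.692%). The Y box was found in HLA-DPB1, HLA-DQA1, HLA-DMA, HLA-DMB and CD74, and in 32.0% of all windows. An X box core followed on the same strand by a Y box 25 to 45 bases further on, a spacing chosen after the class II windows were seen, was present in 7 windows of all 35116, among them HLA-DMA, HLA-DQB1, HLA-DRB1 and HLA-DRB5. Neither motif was found in the 2 windows of HLA-DPA1. A match is a run of letters and not a measured binding site. Only exact matches to these letters were counted, so a window without a match may still hold a box of other letters.

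Among the clones, PK7 stood apart. In PK7, 6 of the 8 genes were at least 2-fold above V22 of the same series, against 1.47% of all probe sets. On 7 of the 8 genes all 3 PK7 arrays lay above all 3 V22 arrays, against 15.5% of all probe sets, and CIITA was the exception. The median difference of the 8 genes was 1.49 on the log2 scale, beside 0.00 over all probe sets. The same clone contrast had chosen the genes, so nothing is read from these shares.

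In the other parkin clones the picture was different. PK19 had 0 of the 8 genes at least 2-fold higher (1.65% of all probe sets), all 3 arrays above V22 on 2 genes (15.5%) and all 3 below on 1 (15.7%). PK25 had 0 at least 2-fold higher (0.0891%) and all 3 arrays above V22 on 1 gene (7.74%). The vector clone V8 had 1 gene at least 2-fold above V22 (0.594%), 4 genes with all arrays above (12.2%) and 2 with all arrays below (12.2%). V17 had 0 at least 2-fold higher (0.0334%) and 2 genes with all arrays above (5.68%). None of the 8 genes was at least 2-fold below V22 in any clone, against 0.905% of all probe sets in PK7, 1.3% in PK19, 0.163% in PK25, 0.427% in V8 and 0.00742% in V17. The median difference was 0.17 in PK19, 0.33 in PK25, 0.16 in V8 and 0.15 in V17.

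**Figure D1:**
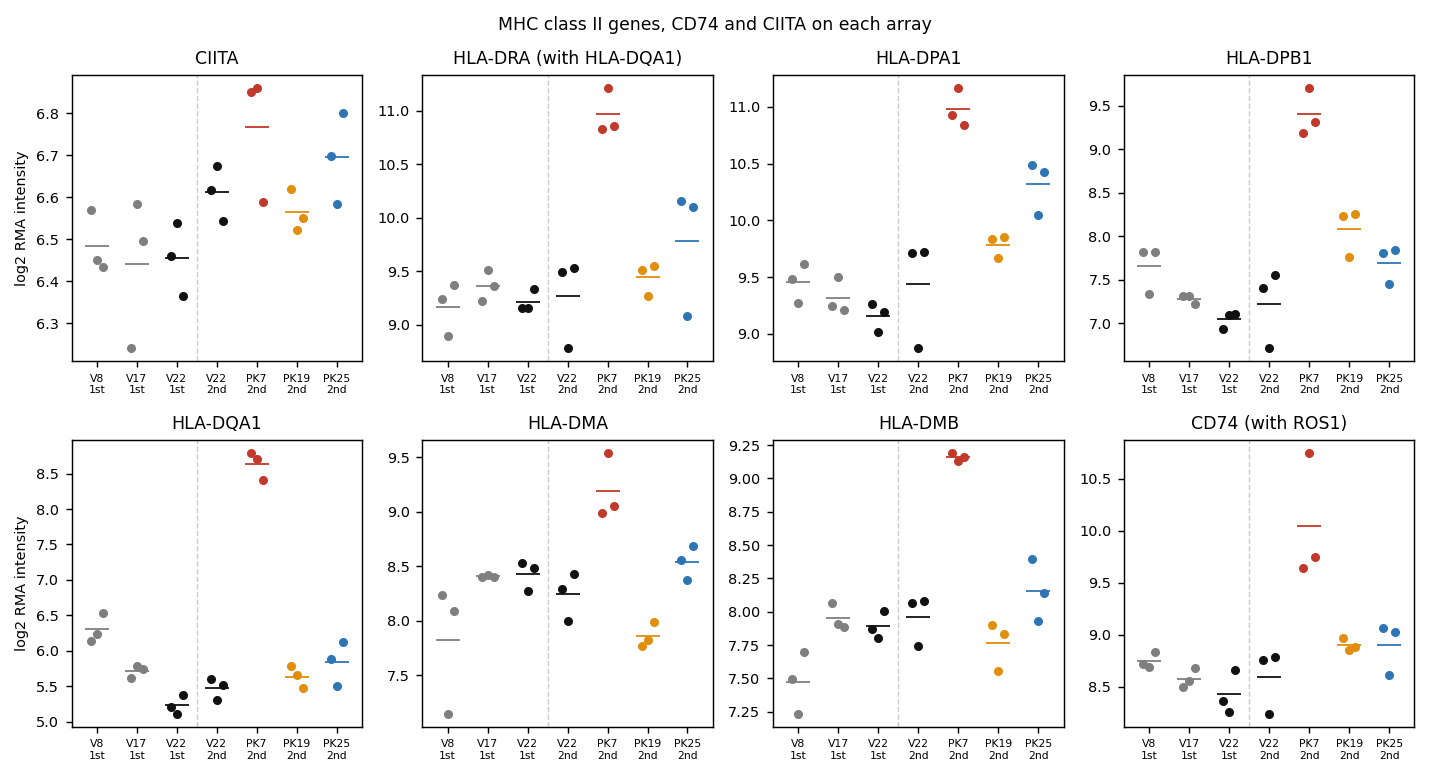
Log2 RMA intensity (y axis) of the 8 genes on each of the 21 arrays, grouped by clone and array series (x axis; the dashed line separates the first series from the second, and horizontal bars are clone means). The 3 PK7 arrays lie above every other array for HLA-DQA1, HLA-DPB1, HLA-DPA1, HLA-DMA and HLA-DMB and on the shared probe sets of HLA-DRA and CD74, and overlap the V22 arrays for CIITA.

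CIITA, the activator, was near the middle of the array's brightness range, above 54.5% of all probe sets. Its log2 values were 6.85, 6.86 and 6.59 on the PK7 arrays of sets 1, 2 and 3, and 6.62, 6.67 and 6.54 on the V22 arrays of the second series. PK25 read 6.70, 6.58 and 6.80, and PK19 6.62, 6.52 and 6.55. In the first series V8 read 6.57, 6.45 and 6.43, V17 6.24, 6.58 and 6.50, and V22 6.46, 6.54 and 6.37. Every clone overlapped V22 of its own series. The PK7 mean was 0.16 higher than V22 (SE 0.10), and the other clones lay between -0.05 and 0.08. CIITA is transcribed from several promoters into different first exons, which this probe set does not separate.

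HLA-DRA encodes the DR alpha chain, which varies little between people and pairs with every DR beta chain. The probe set shared with HLA-DQA1 read 10.83, 11.22 and 10.86 in PK7 against 9.49, 8.78 and 9.53 in V22 of the second series. PK25 read 10.16, 9.08 and 10.10, a range that held all of PK19 at 9.51, 9.27 and 9.55. V8 read 9.24, 8.89 and 9.37, V17 9.22, 9.51 and 9.36, and V22 of the first series 9.15, 9.15 and 9.34. PK7 alone was clear of V22, by 1.70 (SE 0.23) or 3.25-fold. PK25, PK19, V17 and V8 followed at 0.51, 0.17, 0.15 and -0.05, each overlapping V22.

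HLA-DPA1 and HLA-DPB1 encode the alpha and beta chains of DP. HLA-DPA1 read 10.92, 11.17 and 10.84 in PK7, 10.49, 10.04 and 10.43 in PK25, 9.84, 9.66 and 9.86 in PK19, and 9.71, 8.87 and 9.73 in V22 of the second series. It was the gene on which PK25 lay above V22 on all arrays, by 0.88 (SE 0.18), while PK7 was 1.54 higher, or 2.91-fold. PK7 and PK25 did not overlap each other. In the first series V8 read 9.48, 9.27 and 9.62, V17 9.25, 9.50 and 9.21, and V22 9.26, 9.02 and 9.20, so V8 was above V22 on all arrays, by 0.30.

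HLA-DPB1 showed another order among the clones. It read 9.18, 9.71 and 9.31 in PK7, 8.24, 7.76 and 8.26 in PK19, 7.80, 7.45 and 7.84 in PK25, and 7.41, 6.71 and 7.55 in V22 of the second series. PK7 was 2.18 higher than V22 (SE 0.20), or 4.52-fold, PK19 was clear of V22 by 0.86, and PK25 overlapped it at 0.47. PK19 and PK25 overlapped each other. V8 read 7.82, 7.33 and 7.82, V17 7.31, 7.31 and 7.22, and V22 of the first series 6.94, 7.09 and 7.10. Both vector clones therefore lay above V22 on all arrays, V8 by 0.61 and V17 by 0.24.

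HLA-DQA1, the DQ alpha chain, had the largest difference of the 8 genes in PK7 and the widest spread among the vector clones. Its own probe set read 8.79, 8.71 and 8.40 in PK7 against 5.60, 5.31 and 5.52 in V22 of the second series, a difference of 3.16 (SE 0.15) or 8.92-fold. PK25 read 5.88, 5.51 and 6.13 and PK19 5.78, 5.66 and 5.47, both overlapping V22, at 0.37 and 0.16. In the first series V8 read 6.14, 6.24 and 6.54, V17 5.61, 5.78 and 5.74, and V22 5.20, 5.11 and 5.37, with no overlap between any of these clones. V8 was 1.08 above V22, the only difference of at least 2-fold among these genes outside PK7, and V17 was 0.48 above. DQ genes vary in sequence between alleles, and probe binding to each allele was not tested here.

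On HLA-DMA and HLA-DMB, the HLA-DM chains, PK19 and V8 had lower means than V22. HLA-DMA read 8.98, 9.54 and 9.05 in PK7, 8.55, 8.37 and 8.69 in PK25, 7.77, 7.82 and 7.99 in PK19, and 8.29, 8.00 and 8.43 in V22 of the second series. PK7 was 0.95 higher (SE 0.21), or 1.93-fold, just under a 2-fold difference, and PK19 was below V22 on all arrays, by -0.38. V8 read 8.23, 7.15 and 8.09 and V22 of the first series 8.53, 8.27 and 8.49, so V8 was also below V22 on all arrays, at -0.61. Without the V8 array of set 2 that difference was -0.27. V17 read 8.40, 8.42 and 8.40.

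HLA-DMB read 9.19, 9.13 and 9.16 in PK7, 8.40, 7.93 and 8.14 in PK25, 7.90, 7.56 and 7.83 in PK19, and 8.07, 7.74 and 8.08 in V22 of the second series. The 3 PK7 arrays lay close together and 1.20 above V22 (SE 0.13), or 2.29-fold. PK25 and PK19 overlapped V22, at 0.19 and -0.20. V8 read 7.49, 7.24 and 7.70, below the V22 arrays of the first series at 7.87, 7.80 and 8.00, by -0.41, and V17 overlapped them at 8.06, 7.91 and 7.89. HLA-DMA and HLA-DMB thus had the same order of clones relative to V22: PK7, then PK25, then V17, both overlapping V22, then PK19 and V8.

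CD74, the invariant chain, was read from the probe set shared with ROS1. It read 9.64, 10.75 and 9.75 in PK7, 8.97, 8.86 and 8.88 in PK19, 9.06, 8.62 and 9.03 in PK25, and 8.76, 8.24 and 8.79 in V22 of the second series. PK7 was 1.45 higher (SE 0.21), or 2.73-fold, and the set 2 array of PK7, at 10.75, lay well above the other PK7 arrays. Without that array the difference was 1.09. PK19 was above V22 on all arrays, by 0.30, and PK25 had the same mean difference but overlapped V22. V8 read 8.72, 8.69 and 8.84, above V22 of the first series at 8.36, 8.26 and 8.66, by 0.32, and V17 at 8.49, 8.56 and 8.68 overlapped it.

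**Figure D2:**
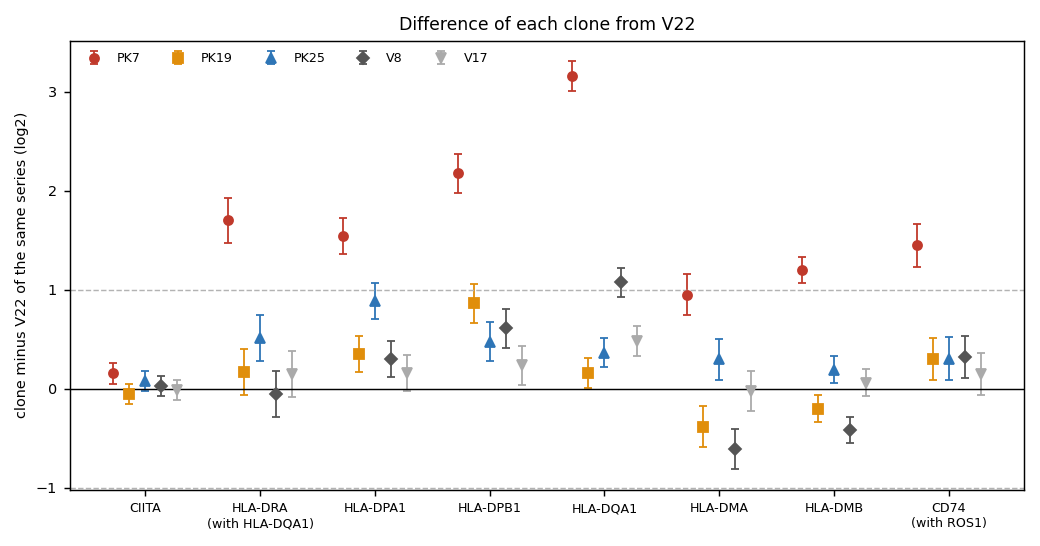
Difference in mean log2 intensity of each clone from V22 of the same array series (y axis) for the 8 genes (x axis), with standard errors from limma over 3 arrays per clone as bars. PK7 reaches 3.16 for HLA-DQA1 and 0.16 for CIITA, and V8 is at 1.08 for HLA-DQA1 and at -0.61 for HLA-DMA.

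Arrays of set 2 moved several of these values together. In PK7 the set 2 array was the highest of 3 on 6 of the 8 genes, whereas the set 2 array was the lowest of 3 on 6 genes in PK19, on 8 in PK25 and on 6 in V8. The V22 array of set 5 was the lowest of its series on 7 genes. Without all set 2 arrays and V22 set 5, the PK7 differences were 3.04 for HLA-DQA1, 1.77 for HLA-DPB1, 1.33 for HLA-DRA, 1.16 for HLA-DPA1, 1.10 for HLA-DMB, 0.92 for CD74, 0.65 for HLA-DMA and 0.14 for CIITA. In that setting 5 of the 8 genes were at least 2-fold above V22. Single arrays also moved the smaller differences of the other parkin clones. Without V22 set 5 alone, PK19 stood at 0.07 for HLA-DPA1, 0.12 for CD74 and -0.07 for HLA-DRA, and PK25 at 0.27 for HLA-DRA, 0.22 for HLA-DPB1, 0.17 for HLA-DMA and 0.13 for CD74. Without its own set 2 array, PK25 stood at 0.86 for HLA-DRA. What moved these arrays was not tested.

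Most class II genes are covered by more than 1 probe set, many of them placed on alternative haplotypes of the region and shared between genes of near-identical sequence. The array lists 34 probe sets for the class II chain genes, 30 of them with values of their own, of which 17 are listed for 1 gene and 13 for several. In PK7 all 30 lay above V22, between 0.08 and 4.06, and 20 were at least 2-fold higher. The value of 4.06 belonged to a probe set listed for both HLA-DQA2 and HLA-DQA1, which read a mean of 10.12 in PK7 and 6.05 in V22. In PK19, PK25, V8 and V17 the counts at least 2-fold higher were 1, 0, 3 and 0 of the 30. Of all probe sets, 1.47% were at least 2-fold higher in PK7, and 1.65%, 0.0891%, 0.594% and 0.0334% in these other clones. The counts above V22 by any amount were 21, 29, 19 and 21 in the same order. Median differences were 0.13, 0.38, 0.14 and 0.07, beside 1.35 in PK7. Over all probe sets the medians of the clones ran from -0.003 to 0.02. PK7 and PK25 were read against the same V22 arrays, and many of the 30 probe sets are listed for the same genes. They are not separate observations, and nothing is read from the direction that PK7 and PK25 share. Where a gene has several probe sets, HLA-DPB1 gave 1.65 to 2.18 in PK7, HLA-DRA 1.70 on each of its 3 shared probe sets, and HLA-DMA 0.93 on a probe set of the main assembly against 0.95 on the one used.

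Of the 12 other class II chain genes, 5 had a probe set listed for that gene alone, and limma's test over all probe sets was applied to them. At an adjusted p under 0.05 and at least 2-fold, limma called 2.3% of all probe sets in PK7 (1.44% higher, 0.865% lower), and 2 of these 5 genes, both higher. HLA-DQB1, the DQ beta chain, rose from 3.51 in V22 to 6.12 in PK7, by 2.62 (SE 0.28, adjusted p = 1.65e-06). It was among the dimmest 30% of probe sets, and an offset of 16 added before taking log2 lowered the difference to 1.66. HLA-DRB5, a DR beta chain whose probes can overlap those of other DRB genes, rose from 9.89 to 10.98, by 1.09 (SE 0.17, adjusted p = 0.000102), and fell short of the call without PK7 set 2, without V22 set 5 or without both. HLA-DOA and HLA-DOB, which encode the HLA-DO inhibitor of HLA-DM, differed by 0.10 and 0.17 in PK7, and the pseudogene HLA-DPB2 by 0.08. None of the 5 genes was called by limma in PK19, PK25, V8 or V17. Since they lie among the genes by which PK7 was noticed, these calls are not independent evidence of a class II change. HLA-DRB1 and HLA-DRA under 1 gene alone were not analysed here.

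**Figure D3:**
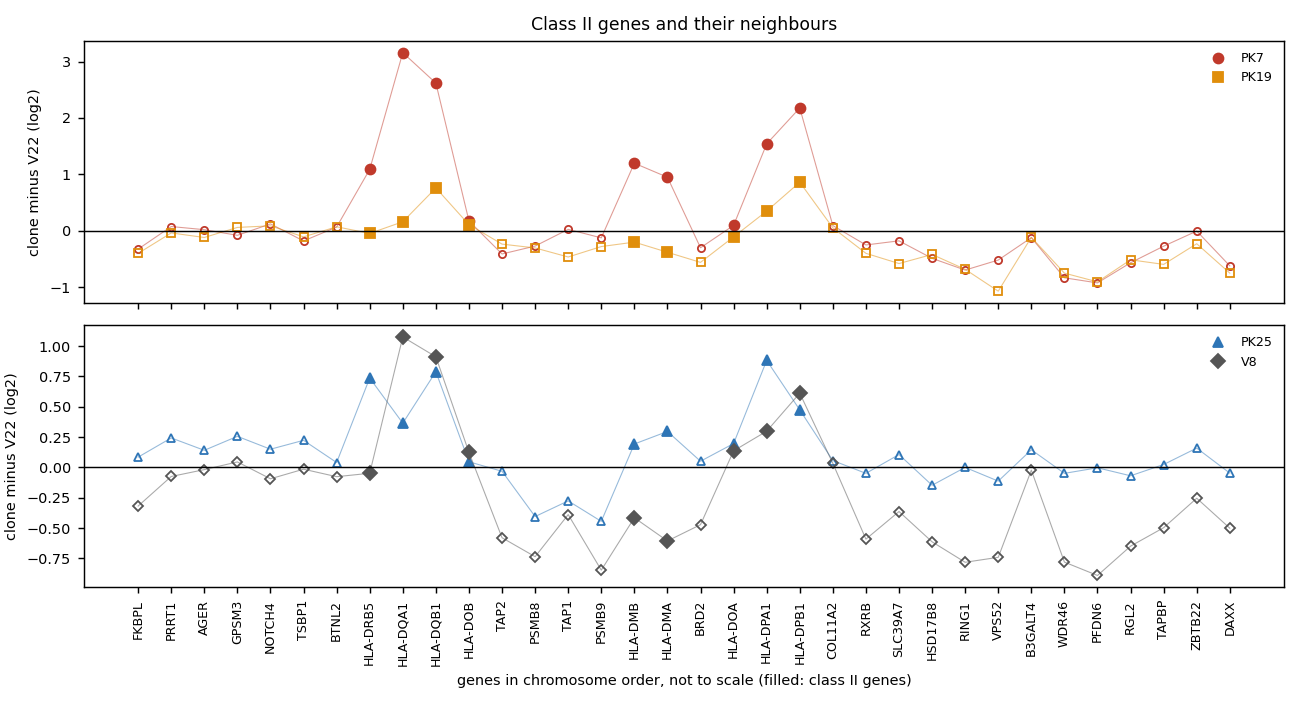
Difference in mean log2 intensity from V22 (y axis) for genes in RefSeq order along the class II region with 20 flanking genes (x axis, rank order, not to scale in bases), for PK7 and PK19 (upper panel) and PK25 and V8 (lower panel, with its own scale); filled symbols are class II genes. In PK7 6 of the 9 class II genes are at least 2-fold higher, while the 5 other genes between them lie between -0.41 and 0.03.

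The class II region also holds genes of the class I route, whose products cut and carry peptides for class I molecules. The order of genes came from RefSeq, and this comparison was added after the values were seen. Between HLA-DRA and HLA-DPB1, 9 class II genes had a median difference of 1.20 in PK7. The 5 other genes between them had a median of -0.27: TAP1 and TAP2, the peptide transporter, were at 0.03 and -0.41, PSMB8 and PSMB9, immunoproteasome subunits, at -0.27 and -0.13, and BRD2, a chromatin reader, at -0.30. The 20 genes flanking the region had a median of -0.22, a range of -0.92 to 0.12, and 0 genes at least 2-fold higher. The sides were unlike. Genes before the region ran from -0.32 (FKBPL) to 0.12 (NOTCH4), and genes after it from -0.92 (PFDN6) to 0.09 (COL11A2). In V8 the same 5 inner genes had a median of -0.58 and the 20 flanking genes one of -0.34. In PK19 these medians were -0.30 and -0.40.

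Among 14 measured factors that act on class II promoters, 1 was called lower in PK7 by limma and none higher, with a median difference of -0.07. NFYA, a DNA-binding subunit of the Y box factor NF-Y, fell in PK7 by 1.20 on the log2 scale (SE 0.09, adjusted p = 1.11e-08 by limma). In PK19 NFYA was at -0.94 and in V8 at -0.66 (limma adjusted p = 1.56e-07 and 5.55e-05), both under 2-fold. EP300, a histone acetyltransferase that CIITA recruits, was at -0.60 in PK7 (limma adjusted p = 0.000284). RFX5, a subunit of the X box factor RFX, was at 0.50 in PK7 and 0.49 in PK19 (limma adjusted p = 0.0057 and 0.007). Neither EP300 nor RFX5 was called, because these differences were under 2-fold.

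Of 13 measured genes on the route from interferon gamma to CIITA, limma called 1 in PK7 (higher) and 2 in PK19 (1 higher and 1 lower; 2.89% of all probe sets were called in PK19, 1.62% higher and 1.27% lower). PRDM1, known as a repressor of CIITA in plasma cells, rose by 1.23 in PK7 (SE 0.17, limma adjusted p = 3.64e-05) and by 1.56 in PK19 (adjusted p = 1.52e-06). The PK7 call was lost without the PK7 array of set 2. IFNGR2, a chain of the interferon gamma receptor, fell in PK19 by 1.11 on the log2 scale (SE 0.10, adjusted p = 8.59e-08). IFNGR2 was also lower in PK7 at -0.55 and in the vector clone V8 at -0.63 (limma adjusted p = 0.000448 and 0.000295). Both were under 2-fold.

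Genes that interferon gamma commonly induces gave 1 call of 14 in PK7 and 2 of 14 in PK19. ICAM1, an adhesion molecule, rose by 2.10 in PK7 (SE 0.22, limma adjusted p = 1.24e-06) and by 1.96 in PK19. GBP2, an interferon-induced GTPase, fell in PK19 by 1.08 on the log2 scale (SE 0.15, adjusted p = 3.15e-05) and was at -0.34 in PK7. With the offset of 16 the PK19 difference was -0.91 and no longer called. GBP2 was also lower in PK25 at -0.62 and in V8 at -0.64 (limma adjusted p = 0.0477 and 0.0106), both under 2-fold. The 14 genes had medians of -0.09 in PK7 and -0.06 in PK19, beside 0.00 over all probe sets in each.

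Class II processing and trafficking genes gave 3 calls of 15 in PK7 (2 higher, 1 lower) and 4 of 15 in PK19 (3 higher, 1 lower). CTSS, cathepsin S, the protease that trims the invariant chain in antigen-presenting cells, rose in both: by 2.37 in PK7 (SE 0.20, limma adjusted p = 9.51e-08) and by 2.31 in PK19 (adjusted p = 8.59e-08). CTSD, a lysosomal aspartic protease, rose by 1.16 in PK7 and by 1.00 in PK19, the second a value at the threshold that was called in 7 of 14 other settings. In PK7 the CTSD difference was 0.97, and not called, when the arrays of set 2 and V22 set 5 were left out. CTSV, a cathepsin that trims the invariant chain in thymic epithelium, rose by 2.40 in PK19 (SE 0.15, adjusted p = 4.5e-10). It too was among the dimmest 30% of probe sets, and with the offset of 16 its difference was 1.69. FLOT1, a lipid raft protein, fell in PK7 by 1.24 and in PK19 by 1.29 on the log2 scale. It was also lower in the vector clone V8, at -0.79 (limma adjusted p = 0.00043, under 2-fold), so the fall was not particular to parkin clones. CTSS thus also rose in PK19, where none of the 8 genes was 2-fold higher, and in V8 it stood at 0.97 (adjusted p = 0.00436, under 2-fold).

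CD74 ligands and partners gave 0 calls of 6 and class I presentation genes 0 of 13 by limma, in PK7 and in PK19. DDT, a cytokine that binds CD74, was at -0.95 in PK7, and CD44, the signalling partner of CD74, at 0.49 in PK7 and 0.90 in PK19. In PK7 the largest class I values were TAPBPL, a peptide editor, at 0.84 and B2M, the class I light chain, at 0.48. These DDT, CD44, TAPBPL and B2M differences had limma adjusted p values of 9.1e-06, 0.00279 (PK7), 3.63e-06 (PK19), 8.9e-05 and 0.0163, and were under 2-fold. Of 10 costimulation genes, 0 were called in PK7 and 1 in PK19, where CD274, the checkpoint ligand PD-L1, fell by 1.43 on the log2 scale (SE 0.22, limma adjusted p = 7.98e-05). In PK7 the 10 genes had a median of 0.37, beside 0.00 over all probe sets, and the lowest was CD274 at -0.32. CD58, CD276, PDCD1LG2 and CD40 were at 0.72, 0.63, 0.57 and 0.55 in PK7, all under 2-fold. Their limma adjusted p values were 0.000118, 7.52e-05, 0.0384 and 0.00765.

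Over all pathway lists, limma called 8 of 90 measured genes in PK7 (6 higher, 2 lower) and 9 in PK19 (5 higher, 4 lower). Of all probe sets, 2.3% were called in PK7 and 2.89% in PK19. The 90 include the 5 other class II chain genes, which gave 2 of the 8 PK7 calls. Those 2 calls are not independent of how the genes were chosen. Limma called 0 in PK25, 0 in V8 and 0 in V17, where 0.193%, 0.98% and 0% of all probe sets passed. At an adjusted p under 0.05 with no fold limit, 7 of the 90 passed in PK25 and 19 in V8. Of all 26947 probe sets, 368 passed in PK25 and 2155 in V8. LGMN, a lysosomal endopeptidase of antigen processing, lay at -0.998 in V8, just under 2-fold, and leaving out 1 array gave 1 to 2 calls there. In PK25 the largest differences were LGMN at -0.76 and HLA-DQB1 at 0.79. In PK7 LGMN went the other way, at 0.99 (limma adjusted p = 2.53e-06), also just under 2-fold.

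**Figure D4:**
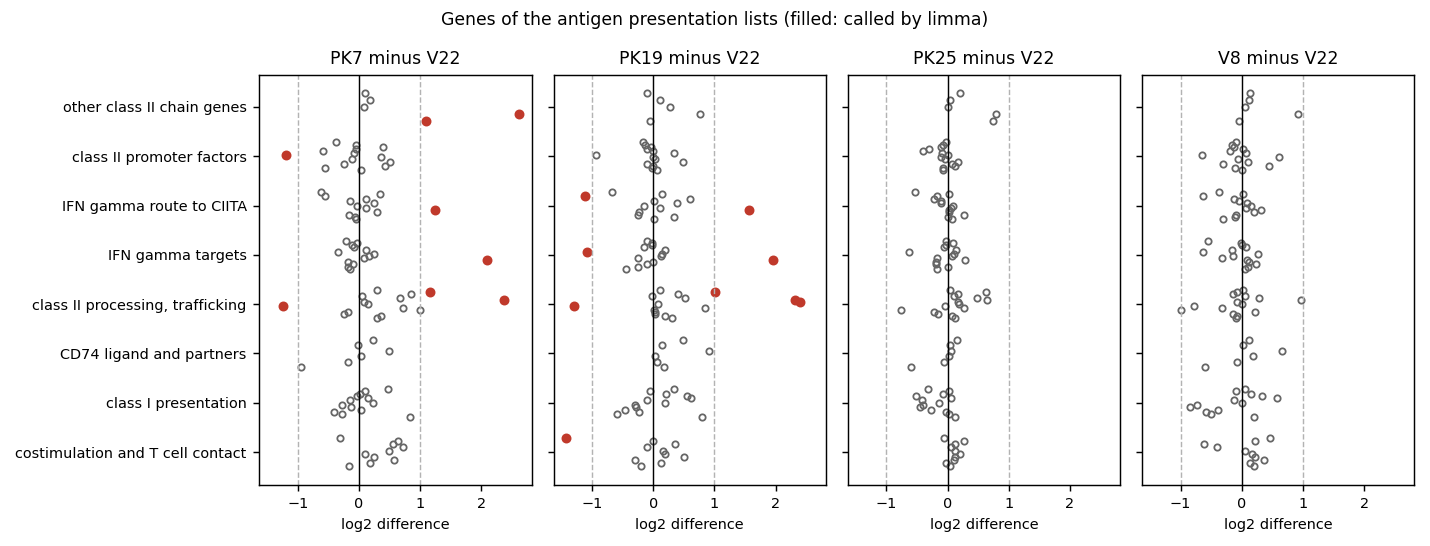
Difference in mean log2 intensity from V22 (x axis) for the measured genes of each antigen presentation list (y axis), in PK7, PK19, PK25 and V8; filled points were called by limma, and the dashed lines mark 2-fold. CTSS and ICAM1 lie past 2-fold in both clones, and HLA-DQB1 at 2.62 in PK7 and 0.76 in PK19.

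Markers of immune cells, which carry class II in tissue, were measured for 18 of 19 genes, and 16 of the 18 were dimmer than the median probe set. Their mean ran from 5.38 to 5.43 over the PK7 arrays and from 5.21 to 5.23 over the V22 arrays of the second series, with 5.20 to 5.36 in PK19 and 5.23 to 5.47 in PK25. PTPRC, which encodes the leukocyte antigen CD45, was at 2.94 in PK7 and 3.05 in V22, and the B cell gene MS4A1 at 3.65 and 3.57. The macrophage genes LYZ and CSF1R were at 3.17 and 6.04 in PK7, against 3.17 and 6.08 in V22. FCER1G and TMEM119 were 0.64 and 0.49 higher in PK7 (limma adjusted p = 0.0456 and 0.0119), both under 2-fold. Over the 18 markers the median difference in PK7 was 0.01 and the lowest was -0.25. Limma called 1 marker in PK7, ITGAX, an integrin of myeloid cells, which rose by 2.26 (SE 0.21, adjusted p = 2.34e-07), and 1 in PK19, FCER1G, which rose by 1.08. CD68, a lysosomal protein that many cells make, was at 11.52 in PK7 and 11.28 in V22.

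Over the 21 arrays, Pearson's r between pairs of the other 7 genes ran from 0.599 (HLA-DMA with HLA-DQA1) to 0.936 (the shared HLA-DRA probe set with HLA-DPA1), and CIITA gave 0.418 to 0.548 with them. These values are a description with no test: the 3 PK7 arrays stand apart and weigh most in them, and the arrays share clones and series. Among 835 probe sets of 1 gene that varied over the clone means, those most like HLA-DRA were HLA-DPA1, HLA-DMB and HLA-DPB1, followed by EPHB1 and DKK3 (r = 0.892 and 0.889). Those most like CD74 were HLA-DPB1 (r = 0.938), P3H1, PRSS23, MAP7D2 and ITGA11. For CIITA the highest r was 0.653, with ID3, followed by HLA-DQB1 at 0.629. The 835 candidates had an SD of at least 0.5 over the clone means. CIITA itself had SDs of 0.10 (parkin clones) and 0.02 (vector clones), so probe sets as even as CIITA were left out beforehand. Nothing is therefore read from its highest r or from the genes that gave it. EPHB1, DKK3, P3H1 and ID3 were 1.59, 1.38, 1.34 and 1.26 above V22 in PK7, as the filter and the weight of the PK7 arrays favour.

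Set as 3 parkin clones against 3 vector clones, with the first series aligned to the second through V22, the 8 genes had higher means in the parkin clones by 0.06 (CIITA) to 0.89 (HLA-DPB1). For HLA-DRA the parkin mean was 10.06 ± 0.80 and the vector mean 9.30 ± 0.10 (SD, n = 3 clones each). For HLA-DPA1 they were 10.36 ± 0.60 and 9.59 ± 0.15. These were the 2 of 8 genes on which all parkin clone means lay above all vector clone means, which held for 12.3% of all probe sets. Over all probe sets, limma called 0.00371% in this comparison at an adjusted p under 0.05. HLA-DQA1 was 6.70 ± 1.67 against 6.00 ± 0.54, with V8 above both PK19 and PK25. Without PK7 the parkin minus vector difference fell to 0.31 for HLA-DRA and 0.46 for HLA-DPA1, and was -0.26 for HLA-DQA1.

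V22 of the second series is the level against which the parkin clones were read when the genes were chosen, so its difference from the first series is a description too. V22 of the second series minus V22 of the first lay between -0.19 for HLA-DMA and 0.28 for HLA-DPA1, with standard errors of 0.10 to 0.23. These differences are 0.05 to 0.28 in size beside PK7 differences of 0.16 to 3.16. Over all probe sets, limma called 0.0297% between the V22 arrays of the series at an adjusted p under 0.05.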

How the data were processed

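Gene expression in U-87MG clones was measured on 21 Affymetrix whole-transcript arrays. The authors deposited linear intensity values, summarised with RMA per the submitters' processing notes; version and joint normalization are not given in the sources used here. The values were converted to log2 without a filter. Each clone was compared with V22 of the same array series in limma 3.58.1 (R 4.3.3, lmFit and eBayes, arrays as observations), fitted on all 26947 probe sets with Benjamini-Hochberg adjustment; a call needs adjusted p under 0.05 and at least 2-fold. The series were read from array name prefixes. Parkin and vector clone means were compared after aligning the first series through V22; its standard errors are too small, because the vector means share that link. The array's gene table gave 1 symbol for 19305 probe sets, several for 1750 and none for 5892.

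The 8 genes, lists and alternatives were chosen with earlier results of these data known. Besides the 8 genes and the other class II chain genes, the pathway genes called in PK7 or PK19 were named, up to 4 per list and clone. Where a list had no call, and in PK25 and V8, only some of the genes with the largest change were named. Called genes of the glioma line list were not named. The 5 probe sets most like HLA-DRA and CD74 were named, and for CIITA only the top ones. Genes named for immune, glioma and region context, and further examples, were chosen after their values were seen. The fit was tested on simulated data. Arrays have no counted depth, and their number limits the precision. Alternatives were other normalizations, an offset of 16, dim probe sets left out, all 6 V22 arrays, other probe sets, a replicate block and leaving out each array.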

Additional observations from a re-analysis of the deposited data

Results flagged for a closer look

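Both HLA-DM chains moved in opposite directions in different clones, each relative to V22 of its own series, and these differences between clones were not tested. For HLA-DMA, all PK7 arrays lay above V22 and all PK19 arrays below, a gap of 1.33 on the log2 scale between the differences of 0.95 and -0.38. For HLA-DMA in PK7 against V8 the gap was 1.56, with V8 at -0.61. For HLA-DMB in PK7 against V8 the gap was 1.61, between 1.20 and -0.41. PK7 and V8 were measured in different array series. The 5 other genes between the class II genes of the region had medians of -0.27 in PK7, -0.30 in PK19 and -0.58 in V8. Lower values in PK19 and V8 were therefore not particular to HLA-DM.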

How the results depend on the processing

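The count of genes at least 2-fold from V22 in PK7 was 5 to 7 of 8 under the other settings tried. In PK19 and PK25 it was 0 to 1 on leaving out an array, the 1 being reached without PK19 set 2 or V22 set 6 (PK19) and without PK25 set 2, V22 set 4 or V22 set 6 (PK25), and it was 1 in PK25 against all 6 V22 arrays. In V8 it was 0 with an offset of 16 or against all 6 V22 arrays, and 0 to 1 on leaving out an array, 0 without V8 set 3. Over all class II probe sets, added after seeing the data, it was 20 in PK7, 1 in PK19 and 3 in V8 of 30. With adjusted p alone, pathway genes called by limma numbered 30 (PK7), 26 (PK19), 7 (PK25) and 19 (V8) of 90. Of all 26947 probe sets, 4101, 3784, 368 and 2155 passed in the same order of clones. With the fold limit kept, limma called 1 pathway gene in PK25 and 1 in V8 against all 6 V22 arrays. In V8 it called 2 without the set 2 arrays and V22 set 5, and 1 to 2 on leaving out an array. Probe sets called between the V22 series were 8, with 3 after centring arrays, 15 with the offset and 0 to 5 on leaving out an array. Parkin against vector gave 1 call, with 0 within the second series (3787 at an unadjusted p under 0.05 in the aligned fit), 844 with clone as a random block, 3 without V8 and a range of 1 to 38 on leaving out a clone, the highest without PK25. The cause of these changes was not tested.

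Same-numbered sets correlated at 0.0591 to 0.216 in the first series and -0.0917 to 0.381 among parkin clones. Sets of different number gave -0.141 to 0.0533 and -0.365 to 0.323, so same-numbered arrays of the first series were the more alike, a hint from the data and not from the design. Not every same-numbered pair passed 0.1, so the numbers were not treated as a pairing. With set number as a replicate block, the V8 count stayed at 1 gene and parkin against vector gave 4097 calls. That parkin against vector fit takes arrays and not clones as observations. Arrays of 1 clone are not replicates of parkin or vector, so nothing is read from its count beside the 1 call on clone means. Single-gene values moved by more than the spread between arrays in 16 comparisons with another setting and by less in 637. The sign changed in 16 of these 653 comparisons: in 15 for clone differences of at most 0.17 in size, as for HLA-DRA in PK19, and in 1 for HLA-DQA1 in parkin against vector clones, at -0.26 without PK7.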
